A study of Mus musculus with 4 samples.

Results

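The tricarboxylic acid cycle enzymes described here are 9 nuclear genes, *Cs*, *Idh2*, *Idh3a*, *Ogdh*, *Dlst*, *Suclg1*, *Sucla2*, *Fh1* and *Mdh2*, found by their symbol among the 55401 gene rows of the heart expression table. All 9 symbols matched 1 row each, and all 9 were above the minimum mean of 1 TPM (a transcript level corrected for transcript length and library size) that left 10036 genes for testing. The members were named by function and not by a measured value, but with earlier results of these data known. RNA-seq of polyA RNA was carried out on 4 heart samples of 8-week-old mice, with 2 samples labelled wild type and 2 labelled *Ctcf* heterozygous, to look for transcript differences between the adult hearts of both genotypes. The C57BL/6N mice carried CTCF-R567W, a single amino acid substitution in the chromatin organiser CTCF made by CRISPR/Cas9 editing, on 1 allele in the heterozygous animals. The labels give no other treatment and number the replicates, but do not say that each sample is a separate animal, so the spread between replicates may be partly technical. TPM do not show the mutated allele, so the genotype labels could not be checked against the data.

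In the tricarboxylic acid cycle, mitochondria oxidise the acetyl group of acetyl-CoA to carbon dioxide and pass the electrons to the respiratory chain as NADH and FADH2. Cardiac muscle, which beats without rest and draws most of its ATP from fatty acids, is among the tissues richest in these enzymes. Citrate synthase opens the cycle, the isocitrate and 2-oxoglutarate dehydrogenases carry out its decarboxylations, succinate-CoA ligase makes a nucleoside triphosphate directly, and fumarate hydratase and malate dehydrogenase lead back to oxaloacetate. All these proteins are encoded in the nucleus and imported into the mitochondrial matrix.

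All 9 transcripts had a lower mean in the heterozygous hearts, beside 51.6% of all 10036 tested genes. Their log2 fold changes ran from -0.66 (*Mdh2*) to -0.12 (*Dlst*) with a median of -0.53, while the median over all tested genes was -0.011. Both heterozygous samples lay under both wild-type samples for 7 of the 9, a pattern found in that direction for 24.0% of all tested genes, and the genotypes overlapped for *Dlst* and *Sucla2*. For none of the 9 did the difference pass the limma test with Benjamini-Hochberg adjustment (adjusted p under 0.05 and a fold over 1.5), with adjusted p values from 0.322 to 0.817. Over all tested genes the test called 3 genes lower, or 0.0299%, and 0 higher. They were *Gm8186*, *Gm14325* and *Zc3h11a*, named after their values were seen, and none is an enzyme of the cycle. At an unadjusted p under 0.05 in the same limma model, 6 members were lower, against 6.08% of all tested genes, and 1234 genes in all differed in either direction. *Ogdh*, *Suclg1*, *Fh1* and *Mdh2* also stand in the study's own list of lowered genes, which was drawn from these libraries, so their direction is not independent evidence. The study names DESeq2 with a fold over 2 and an adjusted p under 0.01 as its criteria. The outcomes thus differ, as none of these genes passed the limma test on TPM used here. In whole tissue, fewer cells of a type and less RNA per cell cannot be told apart.

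**Figure D1:**
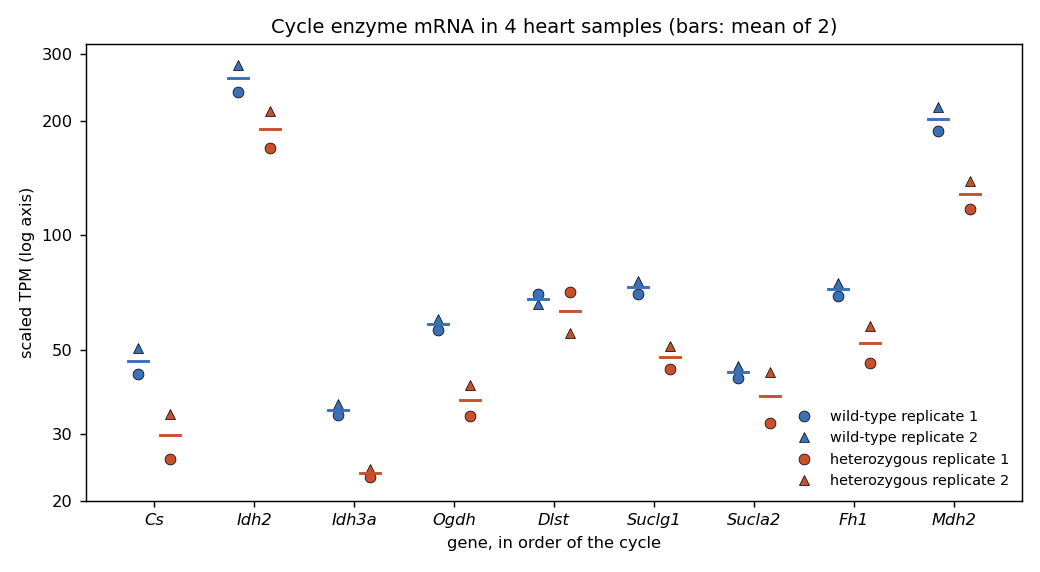
Scaled TPM of the 9 enzymes (log axis) in the 2 wild-type and 2 heterozygous heart samples, in order of the cycle, with bars at the mean of 2. The heterozygous points lie under the wild-type points for every gene but *Dlst* and *Sucla2*, where the genotypes overlap.

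The levels covered close to an order of magnitude. In the wild-type hearts *Idh2* was highest with a mean of 260.0 scaled TPM (TPM divided by a size factor for each sample), followed by *Mdh2* at 203, and *Idh3a* was lowest at 34.7. *Suclg1*, *Fh1* and *Dlst* followed *Mdh2* with means of 73.0, 72.2 and 68.1. Among these neighbours, *Suclg1* and *Fh1*, *Fh1* and *Dlst*, and further down *Cs* and *Sucla2* at 46.8 and 43.6, did not differ beyond the spread of their replicates. Within each wild-type sample, *Suclg1* was still above *Fh1* and *Cs* above *Sucla2*. Of the summed level of the 9, *Idh2* held between 29.4% and 32.3% in each sample. In the heterozygous hearts *Idh2*, *Mdh2* and *Idh3a* held the same places. *Dlst* stood next after *Mdh2* with a mean of 63.1, and *Ogdh* and *Cs* each stood one place lower than in the wild-type. In the heterozygous order, the neighbours *Dlst* and *Fh1*, *Fh1* and *Suclg1*, *Sucla2* and *Ogdh*, and *Ogdh* and *Cs* did not differ beyond their replicates' spread. The other neighbours in the order did. Within each heterozygous sample, *Fh1* was still above *Suclg1* and *Ogdh* above *Cs*. *Dlst* made up 8.64% and 7.28% of the sum in the wild-type samples and 12.6% and 8.40% in the heterozygous samples, whereas *Mdh2* made up 23.2% and 24.0% against 20.8% and 21.2%.

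The promoters of 5 members are shown because these are the 4 genes with the lowest fold changes and the 1 nearest to no difference. Of the several *Ogdh* windows only 1 is shown. The sequences are from RefSeq (GRCm38.p6, the assembly named mm10 in the deposited data's processing notes), 5′ to 3′ on the plus strand, on which all 5 genes lie, and stop before the first exon of the GENCODE gene. Capitals mark GGGCGG or its reverse complement, the core of the Sp1 element, and CNAGNNGGC, part of the CTCF consensus.
Cs, chr10:128337477-128337726: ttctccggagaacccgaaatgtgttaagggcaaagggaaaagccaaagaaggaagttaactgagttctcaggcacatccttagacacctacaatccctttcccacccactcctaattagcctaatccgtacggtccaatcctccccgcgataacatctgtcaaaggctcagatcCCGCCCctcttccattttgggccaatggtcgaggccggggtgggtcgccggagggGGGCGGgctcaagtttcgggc
Ogdh, chr11:6291409-6291632: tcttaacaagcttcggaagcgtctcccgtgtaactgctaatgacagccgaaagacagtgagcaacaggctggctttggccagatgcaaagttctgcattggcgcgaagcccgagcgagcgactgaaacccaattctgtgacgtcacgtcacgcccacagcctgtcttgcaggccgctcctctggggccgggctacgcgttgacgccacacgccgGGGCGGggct
Suclg1, chr6:73248255-73248381: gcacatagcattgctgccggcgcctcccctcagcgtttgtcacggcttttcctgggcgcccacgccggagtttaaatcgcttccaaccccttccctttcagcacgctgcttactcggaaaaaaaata
Mdh2, chr5:135778399-135778479: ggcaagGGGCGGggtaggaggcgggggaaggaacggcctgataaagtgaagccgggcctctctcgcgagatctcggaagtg
Dlst, chr12:85110583-85110832: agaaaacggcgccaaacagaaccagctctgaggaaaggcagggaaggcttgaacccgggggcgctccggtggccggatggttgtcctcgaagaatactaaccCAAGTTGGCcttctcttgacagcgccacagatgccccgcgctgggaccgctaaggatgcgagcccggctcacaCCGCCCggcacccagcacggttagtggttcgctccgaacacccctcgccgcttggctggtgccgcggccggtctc

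Windows of 250 bases before to 50 after a RefSeq start were found for 8 of the 9 members and searched on both strands for 6 strings of letters. GGGCGG was present for 7 of the 8, all but *Suclg1*, and in 35.7% of the 32851 windows of the same length in the table. CNAGNNGGC was present for *Idh2*, *Ogdh*, *Dlst* and *Fh1*, and in 20.8% of all windows. The *Ogdh* match lies in the window of a later start (chr11:6291920-6292219) and not in the promoter shown above. TCAAGGTCA, the element of oestrogen-related receptors, was in the window of none of the 8 members and in 0.423% of all windows, and its core AAGGTCA, which lies inside it, was in a window of *Ogdh* and in 4.72% of all. GCGCATGCG, the NRF-1 element, was likewise found for *Ogdh*, with 1.75% of all windows, and CCGGAAG, the GABP element, for *Dlst*, with 8.86%. A member counts as having a string if any of its windows does, while the percentages are shares of single windows, so these are unlike measures. *Ogdh* has several RefSeq starts and so more windows than the other members. None of the 6 strings was found in the *Suclg1* window.

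*Cs* (ENSMUSG00000005683.8, chr10:128337734-128362479 in mm10) encodes citrate synthase, which joins acetyl-CoA to oxaloacetate and is widely used as a measure of mitochondrial content. Its level was 43.0 and 50.6 scaled TPM in wild-type and 25.8 and 33.8 in heterozygous hearts. The higher heterozygous sample lay under the lower wild-type sample. The means were 46.8 ± 5.34 and 29.8 ± 5.62 (SD, n = 2 each), and the heterozygous mean was 63.7% of the wild-type. The log2 fold change, on the log2(scaled TPM + 1) scale used throughout, was -0.64 with a standard error of 0.20, a 95% interval from -1.12 to -0.17 and an adjusted p of 0.340 in the limma model.

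Isocitrate is oxidised by an NAD-dependent enzyme, whose catalytic subunit is encoded by *Idh3a* (ENSMUSG00000032279.11, chr9:54586334-54604661), and by the NADP-dependent enzyme of *Idh2* (ENSMUSG00000030541.16, chr7:80094846-80115392), a source of mitochondrial NADPH. *Idh3a* was measured at 33.6 and 35.9 scaled TPM in wild-type and at 23.1 and 24.3 in heterozygous hearts. Its replicates were the closest among the 9 members within the heterozygous genotype, with means of 34.7 ± 1.63 and 23.7 ± 0.833 (SD, n = 2 each). The log2 fold change was -0.53 (SE 0.16, 95% interval -0.91 to -0.15, adjusted p 0.336). *Idh2* was at 238 and 282 scaled TPM in wild-type and at 169.6 and 213 in heterozygous hearts. The genotypes did not overlap, but the gap between the nearest samples was smaller than the distance between replicates. Its log2 fold change of -0.45 had a 95% interval from -0.95 to 0.058 that includes 0 (SE 0.21, adjusted p 0.430), and it was -0.29 without heterozygous replicate 1.

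The 2-oxoglutarate dehydrogenase complex turns 2-oxoglutarate into succinyl-CoA. *Ogdh* (ENSMUSG00000020456.17, chr11:6291633-6356642) encodes its E1 component, which decarboxylates the substrate, and *Dlst* (ENSMUSG00000004789.10, chr12:85110833-85134845) its E2 core, which transfers the succinyl group to coenzyme A. *Ogdh* was measured at 56.3 and 60.3 scaled TPM in wild-type and at 33.4 and 40.3 in heterozygous hearts, so that both heterozygous samples were lower by more than the distance between replicates. The means were 58.3 ± 2.83 and 36.9 ± 4.84 (SD, n = 2 each). Its log2 fold change of -0.65 (SE 0.18, 95% interval -1.08 to -0.22) had the smallest adjusted p of the 9 members, 0.322. *Dlst*, in contrast, was at 70.1 and 66.1 in wild-type and at 70.8 and 55.3 in heterozygous hearts. The highest and the lowest *Dlst* values were thus both from heterozygous samples. The log2 fold change was -0.12 (SE 0.19, 95% interval -0.58 to 0.34, adjusted p 0.817), and it was -0.30 without heterozygous replicate 1 and 0.053 without heterozygous replicate 2.

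Succinate-CoA ligase consists of the alpha subunit of *Suclg1* (ENSMUSG00000052738.14, chr6:73248382-73276911), paired with either of a pair of beta subunits that set the nucleotide, *Sucla2* (ENSMUSG00000022110.13, chr14:73525319-73596142) for ATP and *Suclg2* for GTP. *Suclg1* was at 70.1 and 75.8 scaled TPM in wild-type and at 44.5 and 51.0 in heterozygous hearts, with no overlap. Its means were 73.0 ± 3.997 and 47.8 ± 4.58 (SD, n = 2 each), and its log2 fold change was -0.60 (SE 0.18, 95% interval -1.02 to -0.18, adjusted p 0.334). *Sucla2* was at 42.1 and 45.2 in wild-type and at 32.1 and 43.7 in heterozygous hearts. Heterozygous replicate 2 lay among the wild-type values and replicate 1 below them. The log2 fold change of *Sucla2* was -0.21 (SE 0.20, 95% interval -0.69 to 0.27, adjusted p 0.667), and it was -0.0022 without heterozygous replicate 1 and -0.44 without heterozygous replicate 2.

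The last steps are the hydration of fumarate by the product of *Fh1* (ENSMUSG00000026526.14, chr1:175600374-175625635) and the oxidation of malate by that of *Mdh2* (ENSMUSG00000019179.10, chr5:135778480-135790398), which also serves the malate-aspartate shuttle. *Fh1* was at 69.4 and 74.9 scaled TPM in wild-type and at 46.2 and 57.7 in heterozygous hearts. The genotypes were apart, and the means were 72.2 ± 3.87 and 52.0 ± 8.13 (SD, n = 2 each). The log2 fold change was -0.47 (SE 0.19, 95% interval -0.92 to -0.023, adjusted p 0.390). *Mdh2* was at 188 and 218 in wild-type and at 117 and 139 in heterozygous hearts, with means of 203 ± 21.0 and 128 ± 15.5 (SD, n = 2 each). Its log2 fold change of -0.66 was the lowest of the 9 (SE 0.20, 95% interval -1.13 to -0.19, adjusted p 0.336).

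**Figure D2:**
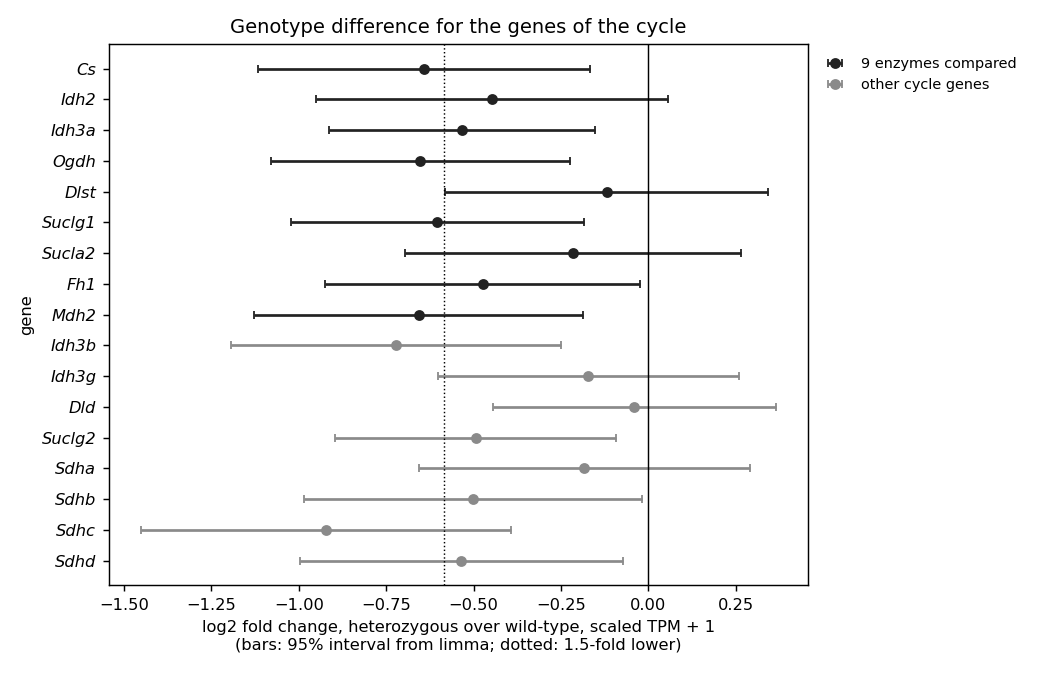
Log2 fold change of heterozygous over wild-type hearts with its 95% limma interval for the 9 enzymes (black) and 8 further cycle genes (grey); the solid line marks 0 and the dotted line a 1.5-fold lower level. Every point lies left of 0, and the intervals of *Idh2*, *Dlst*, *Sucla2*, *Idh3g*, *Dld* and *Sdha* cross it.

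*Cs*, *Ogdh*, *Suclg1* and *Mdh2* were more than 1.5-fold lower, 4 of 9 members beside 2.33% of all tested genes. The members' count was 0 without heterozygous replicate 1 (2.75% of all genes then tested), 1 without wild-type replicate 2 (2.71%), 5 without wild-type replicate 1 (3.40%) and 6 without heterozygous replicate 2 (5.62%). The 4 samples shared a further pattern, in that replicate 2 was above replicate 1 for 8 of the 9 members in each genotype, *Dlst* being the exception in both, while 49.0% and 50.5% of all tested genes were higher in replicate 2 of the wild-type and heterozygous hearts.

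Summed over the 9 members, the level was 811 and 908 scaled TPM in wild-type and 563 and 658 in heterozygous hearts. The means were 859 ± 69.0 and 611 ± 67.2 (SD, n = 2 each), and the heterozygous sum was 71.0% of the wild-type. The genotypes did not overlap, and the exact two-sided permutation p was 0.333, the smallest that 2 samples against 2 allow. On the TPM as deposited, without the size factors, the sums were 878 and 1151 in wild-type and 462 and 599 in heterozygous hearts, and the heterozygous mean was 52.3% of the wild-type.

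Ratios of 2 members within 1 sample do not depend on the scaling, and 12 such ratios were compared. *Suclg1* to *Sucla2*, the alpha to the ATP-forming beta subunit, was 1.67 and 1.68 in wild-type and 1.39 and 1.17 in heterozygous hearts. The wild-type values were nearly equal and the heterozygous values lay lower and further apart, with a mean log2 difference of -0.39. *Ogdh* to *Dlst*, E1 to E2, was 0.804 and 0.913 in wild-type and 0.472 and 0.729 in heterozygous hearts, a mean log2 difference of -0.55 that came to -0.23 without heterozygous replicate 1 and to -0.86 without heterozygous replicate 2. *Fh1* to *Mdh2* lay higher in the heterozygous hearts, at 0.394 and 0.415 against 0.370 and 0.344 (mean log2 difference 0.18). *Idh3a* to *Idh2* overlapped between the genotypes, with 0.141 and 0.127 in wild-type and 0.136 and 0.114 in heterozygous hearts.

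*Cs* served as the reference for the other 8 members. Its own log2 fold change was -0.64, so a higher ratio to it here means a smaller fall of the mean than that of *Cs*, not a rise. The ratios of *Mdh2*, *Ogdh*, *Suclg1* and *Idh3a* to *Cs* overlapped between the genotypes, with mean log2 differences of -0.0026, -0.0081, 0.045 and 0.11, each of which changed sign without some of the samples. *Suclg1* to *Cs* ranged from -0.050 to 0.14 and *Idh3a* to *Cs* from -0.050 to 0.27 when 1 sample was left out. *Mdh2* to *Cs*, for example, was 4.37 and 4.30 in wild-type and 4.54 and 4.12 in heterozygous hearts. The ratios of *Fh1*, *Idh2*, *Sucla2* and *Dlst* to *Cs* were higher in both heterozygous samples, by 0.18, 0.21, 0.44 and 0.54 on the log2 scale, the first being 0.12 without wild-type replicate 2. *Sucla2* to *Cs* was 0.978 and 0.893 in wild-type and 1.24 and 1.29 in heterozygous hearts. *Dlst* to *Cs* was 1.63 and 1.31 against 2.74 and 1.64, and its log2 difference was 0.17 without heterozygous replicate 1 and 0.91 without heterozygous replicate 2. Of the 12 ratios, 2 were lower, 5 higher and 5 overlapping. These counts are a description only, since 8 of the 12 share *Cs* as denominator and no such count was made over other gene pairs. The 7 with separate genotypes all had the smallest possible exact permutation p of 0.333 (two-sided, 0.571 after Benjamini-Hochberg adjustment over the 12). With 2 samples against 2, this test could not reach 0.05 for any of them.

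**Figure D3:**
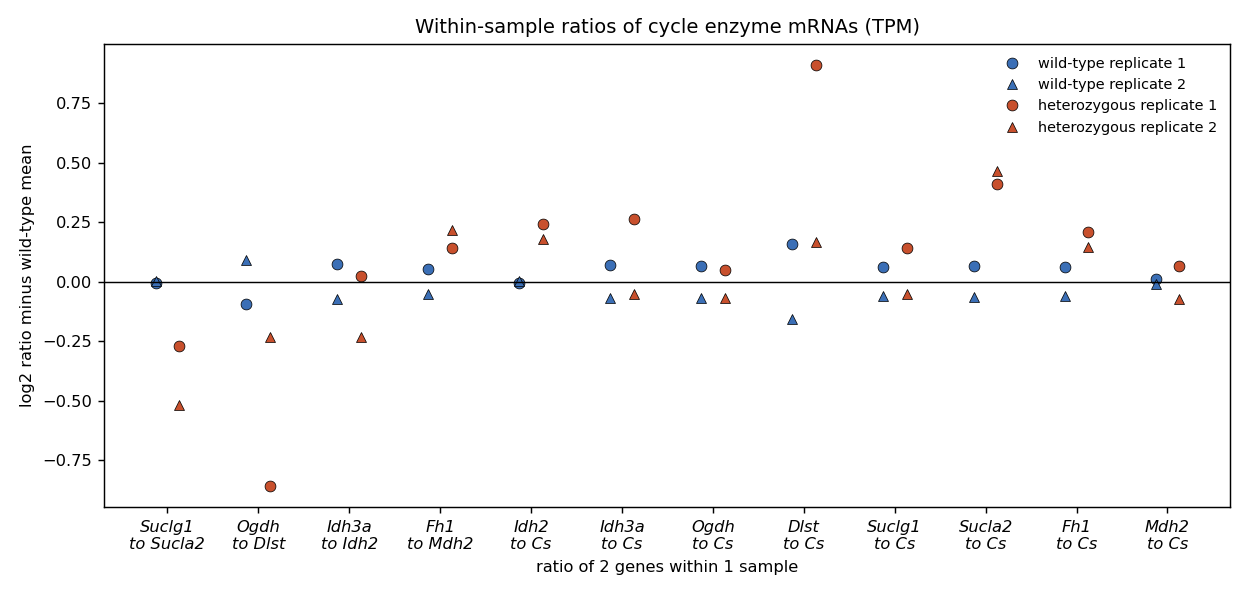
The 12 ratios of 2 members within each sample, as log2 ratio minus the wild-type mean, for the 2 wild-type and 2 heterozygous samples. *Suclg1* to *Sucla2* and *Ogdh* to *Dlst* lie below both wild-type points in each heterozygous sample, *Sucla2* and *Dlst* to *Cs* lie above them, and *Mdh2*, *Ogdh* and *Suclg1* to *Cs* overlap.

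A further 8 genes of the cycle, *Idh3b*, *Idh3g*, *Dld*, *Suclg2* and the 4 subunits of succinate dehydrogenase, were all tested, and none passed. All 8 had a lower heterozygous mean, beside 51.6% of all tested genes. Their median log2 fold change was -0.50. For 6 of the 8 both heterozygous samples lay under both wild-type samples, beside 24.0% of all tested genes. Of the other subunits of the NAD-dependent isocitrate dehydrogenase, *Idh3b* had a log2 fold change of -0.72 (adjusted p 0.322) and the X-linked *Idh3g* one of -0.17 (adjusted p 0.704). Among these 8 genes, only *Idh3b* also stands in the study's own list of lowered genes. *Dld*, the E3 component of the 2-oxoglutarate dehydrogenase complex, which other dehydrogenase complexes also use, was at 26.8 and 26.2 in wild-type and at 28.2 and 23.6 in heterozygous hearts. Like the E2 gene *Dlst*, it had its highest and lowest values in the heterozygous samples (log2 fold change -0.039, adjusted p 0.935).

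*Suclg2*, the GTP-forming beta subunit, was low in every sample, at 5.15 and 5.75 scaled TPM in wild-type and 3.03 and 4.20 in heterozygous hearts (log2 fold change -0.49, adjusted p 0.359). Succinate dehydrogenase, which links the cycle to the respiratory chain as complex II, had log2 fold changes of -0.18 for the flavoprotein *Sdha*, -0.50 for the iron-sulphur subunit *Sdhb*, and -0.92 and -0.53 for the membrane anchors *Sdhc* and *Sdhd*. *Sdhc* was at 33.8 and 41.7 in wild-type and at 16.1 and 23.2 in heterozygous hearts. Its log2 fold change was the lowest of the cycle genes described here, with an adjusted p of 0.307 in limma. *Sdha* overlapped between the genotypes.

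Among the cytosolic counterparts and paralogues, 5 of 6 genes were tested and none passed, with a median log2 fold change of -0.20. *Mdh1b* was listed at 0 in every sample. The lowest were *Mdh1*, the cytosolic malate dehydrogenase of the malate-aspartate shuttle, at -0.72 (adjusted p 0.340), and *Acly*, which splits cytosolic citrate, at -0.52 (adjusted p 0.382). The highest were *Idh1*, the cytosolic NADP-dependent isocitrate dehydrogenase, at -0.019 and *Ogdhl*, a paralogue of *Ogdh*, at -0.080. *Mdh1* was measured at 90.9 and 109 scaled TPM in wild-type and at 51.4 and 70.7 in heterozygous hearts, a difference like that of the mitochondrial *Mdh2*. It is the only gene of this list that also stands in the study's own list of lowered genes.

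The reactions that feed or drain the cycle were followed with 16 symbols, of which 15 matched a row and 14 were tested. The symbol without a row, *Mut*, has the gene identifier of the tested *Mmut*, so both stand for the same gene. Of the 14 tested, 11 had a lower and 3 a higher heterozygous mean, and 51.6% of all tested genes had a lower one. The median log2 fold change of the 14 was -0.28, and none passed. The lowest were *Oxct1*, which activates ketone bodies, at -0.47 (adjusted p 0.380) and *Me3*, a mitochondrial malic enzyme, at -0.46 (adjusted p 0.406). The highest were the mitochondrial citrate carrier *Slc25a1* at 0.34 (adjusted p 0.428) and *Pcx*, which makes oxaloacetate from pyruvate, at 0.25 (adjusted p 0.474). *Pcx* was at 1.598 and 1.68 scaled TPM in wild-type and at 2.01 and 2.27 in heterozygous hearts, a low level at which a pseudocount of 1 understates the fold.

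Mitochondrially encoded transcripts took 61.1% to 64.7% of the TPM in the wild-type and 62.6% to 68.6% in the heterozygous libraries. A further 14.1% to 14.9% and 17.2% to 19.8% was assigned to nuclear copies of mitochondrial DNA. These are 11 genes with a transcript at least 95% identical to a mitochondrial one over 80% of its length. Whether the reads came from these copies or from the mitochondrial transcripts they resemble cannot be told from TPM. The share left for other genes, the 9 members included, was 21.2% and 24.0% in wild-type and 14.2% and 17.6% in heterozygous hearts, with no overlap. The 8 cardiomyocyte markers were above 0 in every sample, and their summed level was 22837 and 21212 scaled TPM in wild-type and 18781 and 22179 in heterozygous hearts, which overlapped. Of these 8 markers, 6 overlapped between the genotypes, and the contractile genes *Actc1*, at 1073 and 1004 against 644 and 875, and *Myl2*, at 7151 and 6538 against 4751 and 5691, were lower in both heterozygous samples without passing the test. The 4 atrial markers were higher by 0.71 to 0.94 (log2) in the heterozygous mean without passing the test, and their sum was 810.5 and 2339.8 against 1910.2 and 3256. The 5 erythroid markers also had a higher heterozygous mean, with sums of 934 and 981 against 962 and 2104, the last from heterozygous replicate 2. Summed levels of the markers of endothelial cells (68.4 and 70.1 against 61.9 and 65.9), fibroblasts (40.7 and 59.3 against 32.5 and 38.9) and mural cells (64.7 and 56.3 against 43.5 and 55.9) were lower in both heterozygous samples, while those of macrophages overlapped (7.80 and 7.66 against 7.27 and 8.29). Single markers did not all follow these sums, and 24.0% of all tested genes were lower in both heterozygous samples. Of the 5 endothelial markers 2 were lower in both heterozygous samples, 2 overlapped and *Tie1* was higher in both, of the 5 fibroblast markers 2 were lower and 3 overlapped, with *Dcn* at 29.8 and 44.8 against 20.6 and 28.8 making up most of the sum, and of the 4 mural markers 2 were lower and 2 overlapped. The summed level of the 4 adipocyte markers was near 0 throughout, at 2.12 and 0.876 in wild-type and 0.158 and 0.802 in heterozygous hearts, lower in both of the latter, with *Lep* at 0 in 1 sample of each genotype. The part of these differences in the values of the 9 members was not tested.

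**Figure D4:**
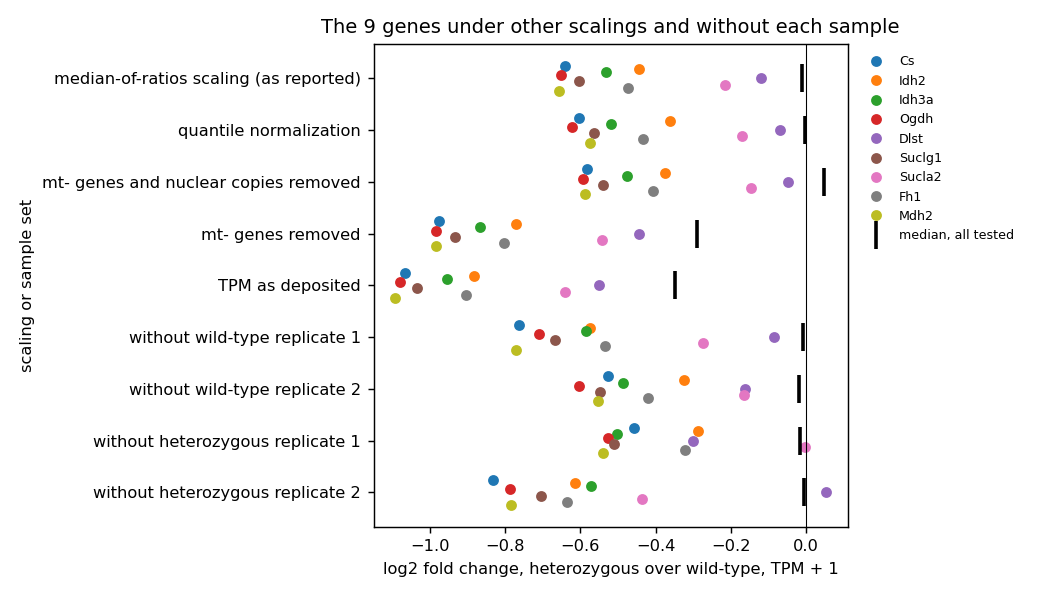
Log2 fold change of each of the 9 members under other scalings and without each sample, with a black bar at the median of all tested genes. All points but *Dlst* without heterozygous replicate 2 lie below 0, and TPM as deposited and removal of the mt- genes move the members and the median of all tested genes left together.

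The scaling moved the size of these differences. With TPM as deposited the median of all tested genes was itself -0.35 and that of the members -0.96, and with the mt- genes removed, the rest brought to one common total and no other scaling, the medians were -0.29 and -0.87. Relative to all genes the members' median was then -0.61 and -0.58, against -0.52 under the scaling reported above. With mt- genes and nuclear copies both removed the members' median was smaller in size, at -0.48, with all tested genes at 0.049, and with quantile normalization it was -0.52. Over the 135 values of single members under other settings, 134 were below 0 and none was called, the exception being *Dlst* without heterozygous replicate 2. The filters, the variance priors and the replicate block left each fold change as reported, so the signs under these settings were fixed and show no stability.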

How the data were processed

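The authors trimmed reads with Trim Galore, aligned them to mm10 with STAR and quantified genes with RSEM, and deposited TPM per gene for 4 heart samples, 1 library each. The annotation release is not given in the sources used here. TPM keep no depth, so counting error is unknown. Read counts, the input of the authors' DESeq2 test, were not used here. Each sample was divided by its median-of-ratios factor (0.821 to 1.27), a pseudocount of 1 was added and log2 taken. Genes with a mean of at least 1 TPM (10036) were fitted with limma 3.58.1 (lmFit, eBayes with trend, two-sided) in R 4.3.3 on genotype alone, with Benjamini-Hochberg adjustment over all of them. A call needed an adjusted p under 0.05 and a fold over 1.5. The script was tested on simulated data with a common spread for all genes and planted changes larger than those of the members. That test does not show how often changes of the members' size would be called. Sums and ratios were compared by exact permutation with scipy 1.17.1. No transcript of another gene was at least 95% identical to a member over 80% of its length (BLAST+ 2.17.0). Coordinates are those of GENCODE for mm10.

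Named were all 9 members, 8 further cycle genes, and the 2 highest and 2 lowest genes of both further lists. Also named, after their values were seen, were *Mdh1b*, the 3 genes called lower, and the markers *Actc1*, *Myl2*, *Tie1*, *Dcn* and *Lep*. *Mut* and *Mmut* were named for their shared identifier. Members, lists and tests were chosen with earlier results of these data known. One gene of a list is not reported here, and the counts of that list leave it out. The alternatives were other pseudocounts (0.1, 5), filters, scalings, variance priors, stricter calls (adjusted p under 0.01, 2-fold), a replicate block and leaving out each sample.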

Additional observations from a re-analysis of the deposited data

How the results depend on the processing

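With 2 samples a genotype and unknown depth, no member was called under any setting (limma adjusted p values of single members from 0.0891 to 0.999). The number of members more than 1.5-fold lower, 4 as reported, was 2 with a pseudocount of 5, with quantile normalization and with mt- genes and nuclear copies removed, 8 with TPM as deposited, 7 with the mt- genes removed, 0 at the stricter 2-fold threshold and 0 to 6 leaving out 1 sample. The share of all tested genes past that fold, 2.33% as reported, was 0.797% with a pseudocount of 5, 2.09% with quantile normalization, 4.34% with mt- genes and nuclear copies removed, 19.3% with TPM as deposited and 16% with the mt- genes removed, so the whole table moved down with the members under the last 2 of these. Genes called lower over the whole table were 3 as reported, with 0 higher. With no filter on low values 0 were called lower, and 2133 genes in either direction had an unadjusted p under 0.05 in limma. With TPM as deposited 11 were called lower and 2 higher, and with the mt- genes removed 5 and 3. With mt- genes and nuclear copies removed the counts were 2 lower and 3 higher. Leaving out 1 sample gave 3 to 25 genes called lower. The counts were 25 lower and 8 higher without wild-type replicate 2, and 17 and 6 without wild-type replicate 1. Without heterozygous replicate 1 they were 4 and 12, where higher calls outnumbered lower ones, and without heterozygous replicate 2 they were 3 and 4. The median of the members was -0.96 with TPM as deposited and -0.87 with the mt- genes removed, and that of the 8 further cycle genes -0.89 and -0.85, with -0.38 at a pseudocount of 5 and -0.67 to -0.33 leaving out 1 sample. The summed level of the members was 52.3% of wild-type with TPM as deposited, 56.4% with the mt- genes removed and 74.4% with mt- genes and nuclear copies removed, against 71.0% as reported. *Dlst* ranged from -0.30 to 0.053 leaving out 1 sample, the value above 0 being that without heterozygous replicate 2. Members with separate genotypes were 7 as reported beside 24.0% of all tested genes, and 9 with TPM as deposited and with the mt- genes removed, where 67.8% and 56.1% of all tested genes were separate in that direction. Where a sample was left out, the lone sample was assumed to vary like the other genotype. Same-numbered samples share only a number. Their deviations correlated at 0.10 across genes, which are not independent, and with 2 pairs this shows no pairing. With a replicate block 8 genes were called lower and 3 higher, no member among them. The causes of these shifts were not tested.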

Other observations

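Ratios with genes outside the 9 members were chosen after their values were seen and are given without a test. *Suclg2* to *Sucla2*, the GTP-forming to the ATP-forming beta subunit of succinate-CoA ligase, was 0.122 and 0.127 in wild-type and 0.0946 and 0.0961 in heterozygous hearts. *Ogdh* to *Dld*, E1 to E3 of the 2-oxoglutarate dehydrogenase complex, was 2.10 and 2.30 against 1.19 and 1.71, while *Dld* to *Dlst*, E3 to E2, was 0.383 and 0.397 against 0.398 and 0.426. Within the NAD-dependent isocitrate dehydrogenase, *Idh3g* to *Idh3a* was 3.04 and 3.18 in wild-type and 3.98 and 4.11 in heterozygous hearts, and *Idh3b* to *Idh3a* overlapped between the genotypes. *Sdhc* to *Sdha*, a membrane anchor to the flavoprotein of succinate dehydrogenase, was 0.471 and 0.551 against 0.284 and 0.313.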
